A study of Homo sapiens with 4 samples.

Results

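The Notch receptors, their Delta and Jagged ligands and the Notch-binding protein DNER were examined in HEK293 cells. These were 10 genes of the 17217 that could be named on the array. They comprised NOTCH1, NOTCH2, NOTCH3 and NOTCH4, the ligands DLL1, DLL3, DLL4, JAG1 and JAG2, and DNER. They were listed by name for their roles when values of these arrays were already known, so their own values are given as a description and none of them is tested. Every probe assigned to them was used, which gave 11 targets and 33 probes, because DLL3 had 2 targets and each of the others had 1. HEK293 is a line of human embryonic kidney cells transformed with adenovirus DNA. The 4 arrays formed 1 group of untreated cells kept in basal culture medium with serum, each from its own plate and its own RNA extraction by the study's methods. No other condition, time or genotype was compared.

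Notch signalling passes between touching cells. A Delta or Jagged ligand on 1 cell pulls on a Notch receptor of its neighbour, the receptor is cut by ADAM proteases and then by gamma-secretase, and its freed intracellular domain enters the nucleus, where it joins RBPJ and a Mastermind protein to switch on genes of the HES and HEY families. DNER, the Delta and Notch-like EGF repeat-containing protein, is a neuronal transmembrane protein with EGF repeats that lacks the DSL domain by which Delta and Jagged proteins bind Notch, and it is best known from Purkinje cells. The pathway guides cell fate choices in the developing kidney, blood vessels and nervous system.

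Each array was read against the study's own baseline, the mean plus 2 SD of seminal control genes that the line was thought not to transcribe. The baseline was 9.47, 9.94, 10.69 and 10.32 log2 units on replicates 1 to 4, or 10.10 ± 0.52 (SD, n = 4). A gene's distance is its log2 level minus the baseline of the same array, and genes with a mean distance above 0 over the 4 arrays count as detected, by the study's rule. Of the control genes, SPATA5 and SPATA13 read highest, at means of 9.97 and 9.72 log2 units, beside at most 7.25 for the others. With both left out, all 10 genes of the list and 74.0% of all genes were detected, so the calls below depend on them. Probes differ in affinity, so distances of different genes rank signals and not amounts of transcript. The 4 arrays did not resemble each other equally. Taken across genes, none of which is an independent replicate, Pearson's r was 0.971 between replicates 1 and 3 and 0.977 between replicates 2 and 4, and it ranged from 0.949 to 0.959 for the other pairs. Targets on which all 3 probes put the same 2 arrays at least 2 log2 units above the other 2 numbered 13 with replicates 1 and 3 on top and 11 with replicates 2 and 4 on top. At this gap there were 0 for each of the other 4 ways to choose the upper arrays. At a gap of at least 1 log2 unit, 62 targets had replicates 1 and 3 on top and 61 had replicates 2 and 4. Another 21 had replicates 3 and 4 on top, and each remaining way held at most 1. The labels describe nothing that sets replicates 1 and 3 apart from replicates 2 and 4. The 10 widely used reference genes were all above the baseline on all 4 arrays, at mean distances of 3.17 to 5.55. Of 15 kidney markers, 3 were detected, beside 52.7% of all genes, and 12 lay below the baseline on all 4 arrays, beside 39.8%. What this means for the kidney origin of the line was not tested.

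Of the 10 genes, 7 were detected by the study's rule, beside a background of 52.7% of all named genes. Only JAG2, NOTCH1, NOTCH2 and NOTCH3, 4 of the 10, exceeded the baseline on each array, beside 45.0% of all genes. The median distance of the 10 genes was 0.34 log2 units and that of all genes 0.26. The share above on each array and the median were thus near those of the array as a whole. The share detected was higher than that of all genes, a difference that was not tested and rests on only 10 genes. In RNA of whole cultures, fewer cells with a transcript and less transcript per cell cannot be told apart. All 4 receptors, 3 of the 5 Delta and Jagged ligands and not DNER made up the 7. Replicate 1 put 9 of the 10 above its baseline, replicate 2 put 7, and replicates 3 and 4 put 6 each. Of all genes, 58.1%, 54.2%, 47.4% and 50.2% were above the baseline on replicates 1 to 4, so that replicate 1 was highest by this measure too.

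**Figure D1:**
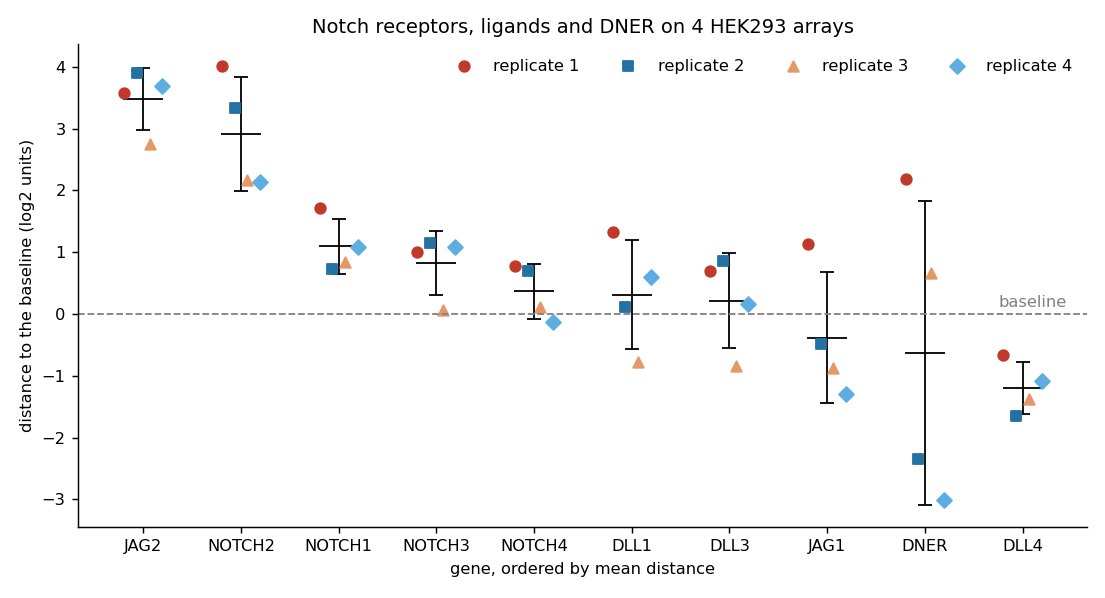
Distance to the baseline (log2 units, vertical axis) of each gene (horizontal axis) on each of the 4 arrays (coloured symbols), with the mean and SD (black bars). JAG2 and NOTCH2 stand highest, at 3.48 and 2.91, while the arrays of DNER run from -3.01 to 2.18.

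Among the receptors, NOTCH2 gave the highest signal. NOTCH2 is a broadly expressed receptor needed for kidney tubule patterning. Its distance was 4.01, 3.34, 2.16 and 2.14 on replicates 1 to 4, with a mean of 2.91 ± 0.92 (SD, n = 4). Every array was far above its baseline, replicates 1 and 2 more so than replicates 3 and 4. The log2 level before subtraction varied less, from 12.46 to 13.48. The 3 probes of NOTCH2 disagreed widely. The first read 13.62 to 14.78 and was above the baseline on all arrays, the second read 12.52, 12.60, 9.49 and 11.96 on replicates 1 to 4, and the third stayed at or below 9.17 and was above the baseline on none. With the mean of the log2 probe values in place of log2 of their mean, the distance of NOTCH2 was 1.68. NOTCH2NLA, a partial gene copy that carries the start of NOTCH2, had its own target, which lay below the baseline on all 4 arrays at -1.54 ± 0.17 (SD, n = 4). Which NOTCH2 probes could also bind the partial copies was not known, since no probe sequences were used here.

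NOTCH1, the best studied receptor of the family, stood at 1.72, 0.73, 0.85 and 1.07 on replicates 1 to 4, a mean of 1.09 ± 0.44 (SD, n = 4). All 4 arrays lay above their baseline, and replicate 1 was the farthest from it. The first and second NOTCH1 probes were above the baseline on all arrays, and the third, at 6.32 to 8.40, on none. NOTCH3, a receptor known from vascular smooth muscle, stood at 1.00, 1.15, 0.06 and 1.08, a mean of 0.82 ± 0.51 (SD, n = 4). It too was above the baseline on each array, although on replicate 3 it only touched it. Its level was 10.47, 11.09, 10.75 and 11.40, with replicates 2 and 4 above replicates 1 and 3. Of the 3 NOTCH3 probes, the first was above the baseline on all arrays and the second, at 7.85 to 9.36, on none. The third was below it on replicate 3 alone, at -0.29.

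NOTCH4, the receptor most tied to blood vessels, was close to the baseline at 0.77, 0.70, 0.12 and -0.13 on replicates 1 to 4. Its mean of 0.36 ± 0.44 (SD, n = 4) was within 1 SD of the baseline, and replicate 4 lay below it. The call rested on 1 probe, which read 11.39 to 12.08, while the others read 7.69 to 10.02. Summarised by the median of its probes, NOTCH4 fell below the baseline, at -0.76. Beside it, 7 of 8 endothelial markers lay below the baseline on all 4 arrays, and the exception was KDR, the VEGF receptor, at 0.30 ± 0.85 (SD, n = 4). The log2 of the summed signal of these 8 markers was 11.19 to 11.45 over the arrays.

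**Figure D2:**
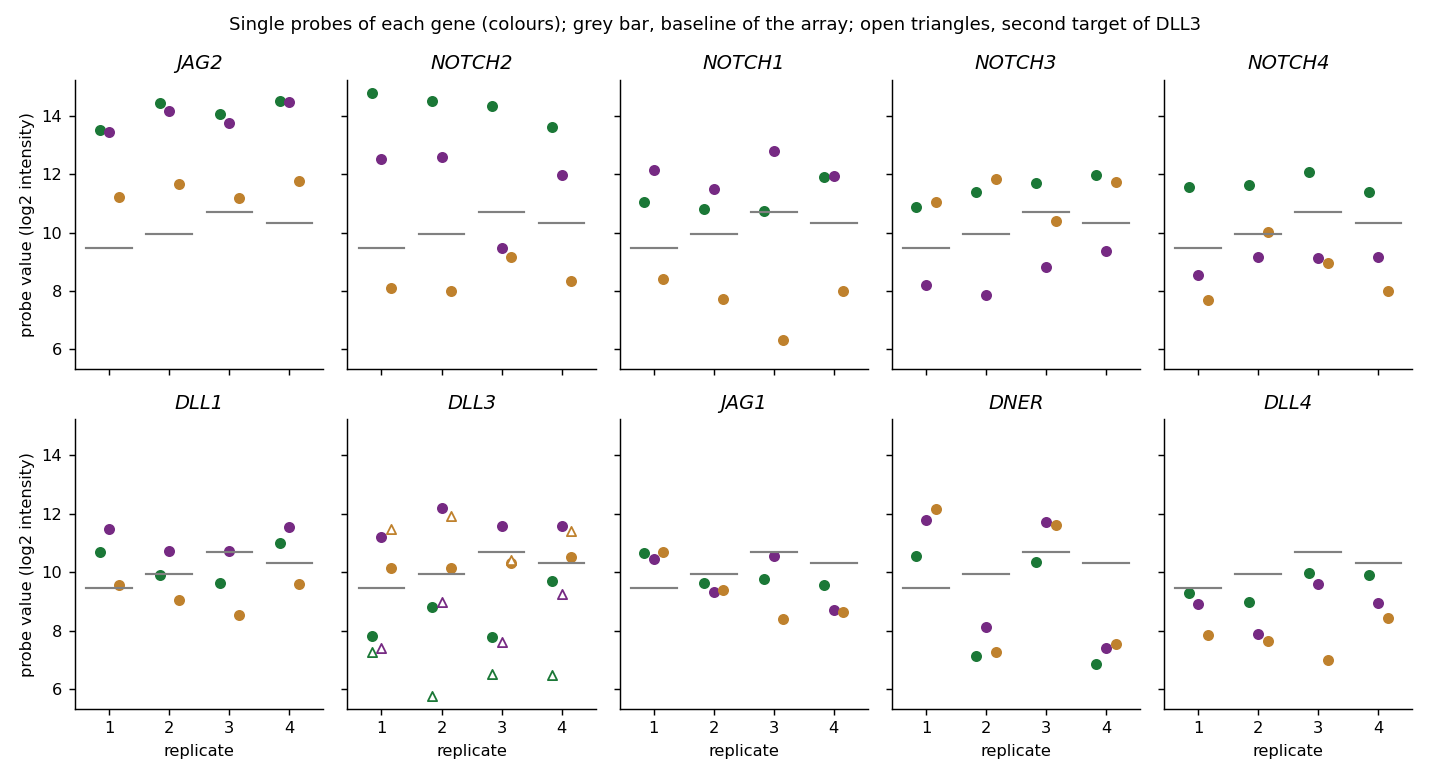
Each panel is a gene, with the replicate on the horizontal axis and the log2 intensity of each probe (dots; colours are the single probes of a target, open triangles the second DLL3 target) on the vertical axis; grey bars are the baselines. JAG2 has all 3 probes above the baseline on every array, DLL4 has none, and the 3 probes of DNER move together between arrays.

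Of the ligands, JAG2 had by far the highest signal. JAG2 activates Notch in limb, thymus and craniofacial development. Its distance was 3.57, 3.90, 2.74 and 3.68 on replicates 1 to 4, a mean of 3.48 ± 0.51 (SD, n = 4). All 3 of its probes were above the baseline on all 4 arrays, which held for no other gene of the 10. Over the 33 probes of the 10 genes, 10 were above the baseline on every array and 10 on no array, beside 34.3% and 47.6% of all probes. The level of JAG2 was 13.04, 13.84, 13.44 and 14.01, with replicates 2 and 4 above replicates 1 and 3.

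JAG1, the other Jagged ligand and the gene changed in Alagille syndrome, was not detected. Its distance was 1.13 on replicate 1 and -0.49, -0.88 and -1.29 on replicates 2 to 4, a mean of -0.38 ± 1.06 (SD, n = 4). A single array was thus above the baseline. On that array all 3 probes lay between 10.44 and 10.68 and agreed closely. The means of its probes over the arrays spanned 0.63 log2 units, the narrowest span among the 10 genes. For comparison, the median span within a target was 1.44 over the 23999 targets with 3 probes. The difference between JAG2 and JAG1 was larger than the spread between arrays for either gene.

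The Delta ligands lay near or below the baseline. DLL1, which drives somite and neural patterning, stood at 1.32, 0.12, -0.78 and 0.59, a mean of 0.31 ± 0.88 (SD, n = 4). Replicate 3 was below the baseline, and without replicate 1 the mean was -0.02. DLL3, which acts mainly inside the cell to hold Notch back and marks neuroendocrine tumours, stood at 0.69, 0.86, -0.84 and 0.15, a mean of 0.22 ± 0.77 (SD, n = 4). Again replicate 3 was the low array. The 2 DLL3 targets differed in sign, at 0.57 ± 0.52 and -0.14 ± 1.03 (SD, n = 4 for each), and with the mean of the log2 probe values the gene fell to -0.33.

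The DLL3 targets are separate RefSeq accessions of the gene, and 2 probes of each bear the same number in their names, 914 and 1698. The values of a pair with the same number differed by 0.15 to 1.17 log2 units within an array, the widest on replicate 3. Over all 439 such pairs on the array, the median difference within an array was 0.30 log2 units and the 95th percentile 1.55. Whether probes with the same number have the same sequence was not known. DLL4, the ligand of sprouting vessels, was below the baseline on every array, at -0.66, -1.65, -1.37 and -1.09, a mean of -1.19 ± 0.42 (SD, n = 4). None of its probes exceeded the baseline anywhere. It was the only gene of the 10 below the baseline on all arrays, beside 39.8% of all genes.

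In the order of mean distance, JAG2 and NOTCH2 did not differ beyond their spread, with a difference of 0.56 ± 0.81 (SD, n = 4). NOTCH2 stood 1.82 ± 0.75 above NOTCH1 on 4 of 4 arrays. That was the only step between neighbours larger than its SD over the arrays. From NOTCH1 down through NOTCH3, NOTCH4, DLL1, DLL3, JAG1, DNER and DLL4, each step was within its spread. These steps depended on how probes were summarised. With the median of the probes, NOTCH2 stood at 1.67 ± 1.84 and NOTCH1 at 1.16 ± 0.62, closer together. With the mean of the log2 probe values, JAG2 stood at 3.41 ± 0.55 and NOTCH2 at 1.68 ± 0.90, farther apart (SD, n = 4 for each).

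DNER behaved unlike the other genes of the list. Its level was 11.65 log2 units on replicate 1 and 11.36 on replicate 3, and 7.59 on replicate 2 and 7.31 on replicate 4. The high pair and the low pair did not overlap, and the values within each pair lay within 0.29 log2 units. The measured levels differed by 4.06 log2 units between replicates 1 and 2 and by 4.05 between replicates 3 and 4. Since the low values lay below the baseline, these differences have no exact fold. With the low array set at its own baseline, DNER was at least 3.27-fold higher on replicate 1 than on replicate 2 and at least 2.05-fold higher on replicate 3 than on replicate 4. DNER was listed when values of these arrays were already known, so the shares that follow describe it and are no test. By measured level, 0.145% of genes were as far apart between replicates 1 and 2, and 0.0523% between replicates 3 and 4. Within each of these pairs the arrays share a distribution of values, so the separation was present inside both.

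All 3 probes of DNER showed it. The first probe read 10.57 and 10.35 on replicates 1 and 3 and 7.14 and 6.86 on replicates 2 and 4. The second read 11.79 and 11.73 against 8.14 and 7.42 on the same arrays. The third read 12.16 and 11.63 against 7.29 and 7.56. Thus the lowest of the 6 high values stood more than 2 log2 units above the highest of the 6 low ones. All 6 low values were below the baseline of their array. So was 1 of the 6 high values, that of the first probe on replicate 3, at a distance of -0.34. On replicate 4 the level of DNER was below the mean of the control genes, 7.70, and on replicate 2 it was above that array's mean, 7.26.

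Set against the baseline, DNER stood at 2.18 and 0.67 on replicates 1 and 3 and at -2.35 and -3.01 on replicates 2 and 4. Its mean of -0.63 ± 2.46 (SD, n = 4) left it undetected by the study's rule, and this mean describes none of the 4 arrays. Without replicate 4 the mean was 0.17. With all 4 arrays quantile normalized together its levels were 11.56, 7.80, 11.44 and 7.01, so the separation remained. The SD of its level was 2.34 log2 units, a figure that rests in part on the low values below the baseline. The other 9 genes had SDs of 0.30 to 0.67, while the median of all genes was 0.42 and 4.45% of genes exceeded 1.

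**Figure D3:**
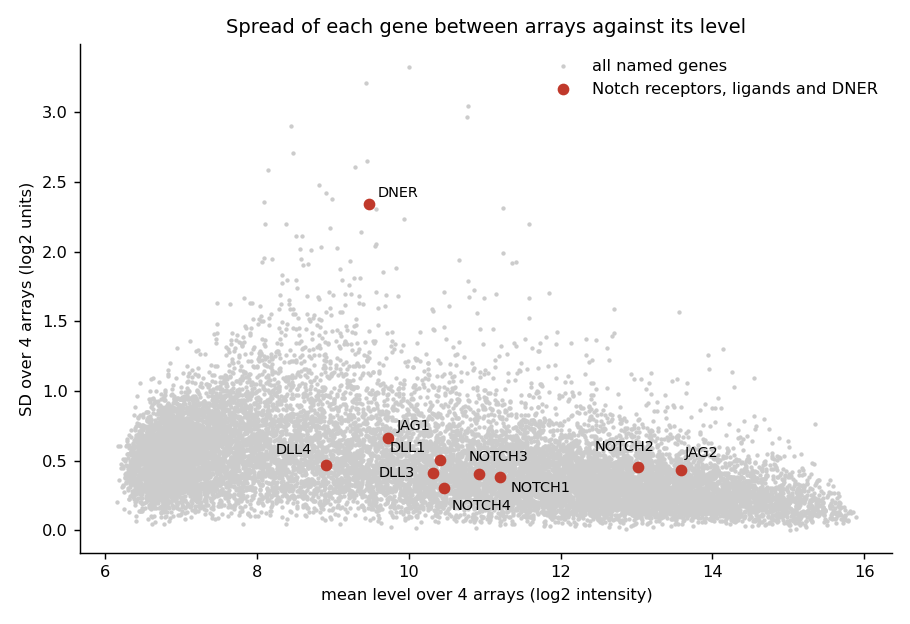
SD of the log2 level over the 4 arrays (vertical axis) against the mean log2 level (horizontal axis) of all 17217 genes (grey) and of the 10 genes (red). DNER lies at 2.34, with 2 of its 4 values below the baseline, and the other 9 lie between 0.30 and 0.67 within the bulk of genes.

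Genes whose 4 levels deviated from their own mean most like those of DNER were ZNF28, ZNF160, TMEM47, CASP4 and DPP7. They were picked after the values of DNER had been seen, by the root mean square difference of the deviations over the 4 arrays, which was 0.05 to 0.30 log2 units. ZNF28, a KRAB zinc finger gene with close relatives that its probes may also bind, read 11.67, 7.67, 11.46 and 7.47 on replicates 1 to 4. CASP4, an inflammatory caspase, read 10.77 and 10.92 on replicates 1 and 3 and 7.002 and 7.18 on replicates 2 and 4. By the way they were picked, both had the same pair of arrays high as DNER. Both were below the baseline on the other arrays. By the levels themselves, the genes nearest to JAG2 over the 4 arrays were IDH2, SCARB1, ALDH1A2, IGF1R and ZNF503, at root mean square differences of 0.08 to 0.17.

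Since DNER is a neuronal gene, neuronal markers are given beside it. All 5 neurofilament and neuronal tubulin genes were detected, and 4 of them were above the baseline on all arrays. The exception was NEFM, the medium neurofilament chain, at 13.57 and 13.09 on replicates 1 and 3 and 8.32 and 8.08 on replicates 2 and 4. The other 4 genes did not share 1 pattern. INA, or alpha-internexin, was higher on replicates 1 and 3, at 13.31, 12.13, 12.97 and 11.67 on replicates 1 to 4. NEFH, the heavy chain, was higher on replicates 2 and 4, at 11.61, 12.65, 11.38 and 12.36. NEFL, the light chain, read 13.88 to 14.27, and the tubulin TUBB3 read 12.40, 11.62, 11.58 and 11.20. The log2 of the summed signal of these 5 genes was 15.63, 14.85, 15.33 and 14.81 on replicates 1 to 4. Of 10 proneural and neuroendocrine genes, 8 were below the baseline on all 4 arrays. The 2 detected were the synaptic vesicle gene SYP at 3.09 ± 0.89 and the neuroendocrine factor INSM1 at 0.52 ± 0.93 (SD, n = 4 for each). The log2 of the summed signal of this list was 14.07, 13.21, 14.02 and 13.57, again higher on replicates 1 and 3. Its members moved apart, since SYP read 13.84, 12.28, 13.71 and 12.95 and INSM1 read 10.04, 11.42, 9.95 and 11.11, the reverse. The part of these genes in the DNER values was not tested. All 6 blood cell markers lay below the baseline on every array.

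**Figure D4:**
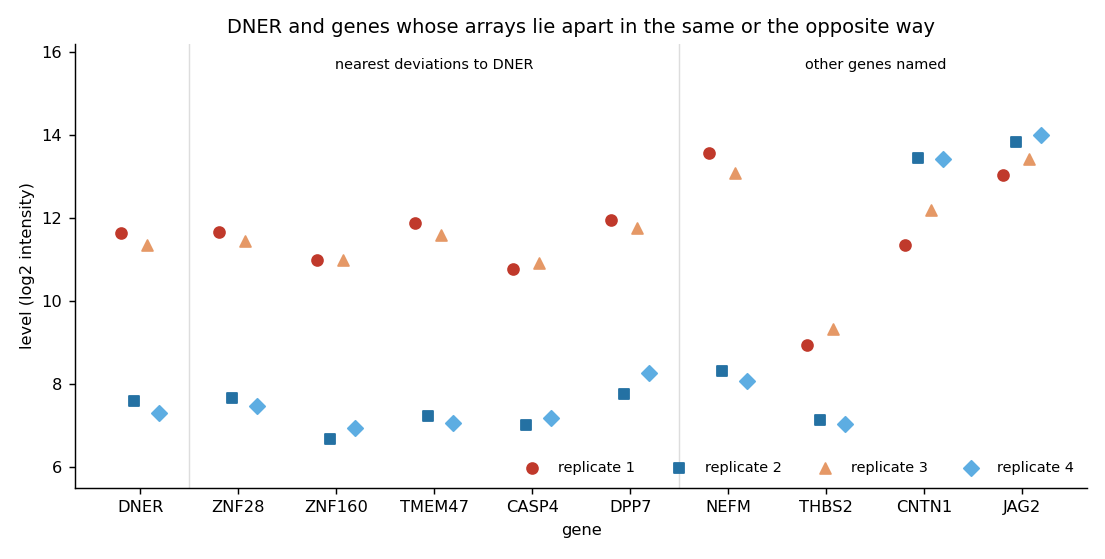
Log2 level (vertical axis) on each of the 4 arrays (coloured symbols) for DNER, the 5 genes with the nearest deviations, and NEFM, THBS2, CNTN1 and JAG2. Replicates 1 and 3 lie above replicates 2 and 4 for DNER, its 5 nearest genes, NEFM and THBS2, and below them for CNTN1 and JAG2.

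The rest of the pathway was taken from lists written by role. Of 69 genes listed, 65 were matched. They were tested against the baseline with limma, a linear model with moderated errors, fitted to all 17217 genes with a two-sided test and Benjamini-Hochberg adjustment. The test called 37 of the 65 above the baseline and 12 below it, and 16 were not called. Among all genes 45.8% were called above and 41.1% below. The median distance of the 65 genes was 1.35 log2 units, beside 0.26 for all genes. With SPATA5 and SPATA13 left out of the control genes, 56 were called above and 3 below. The fit gave every gene the same standard error of 0.351, and a shift in an array's baseline moves all genes on it together, so these calls are not independent of each other.

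**Figure D5:**
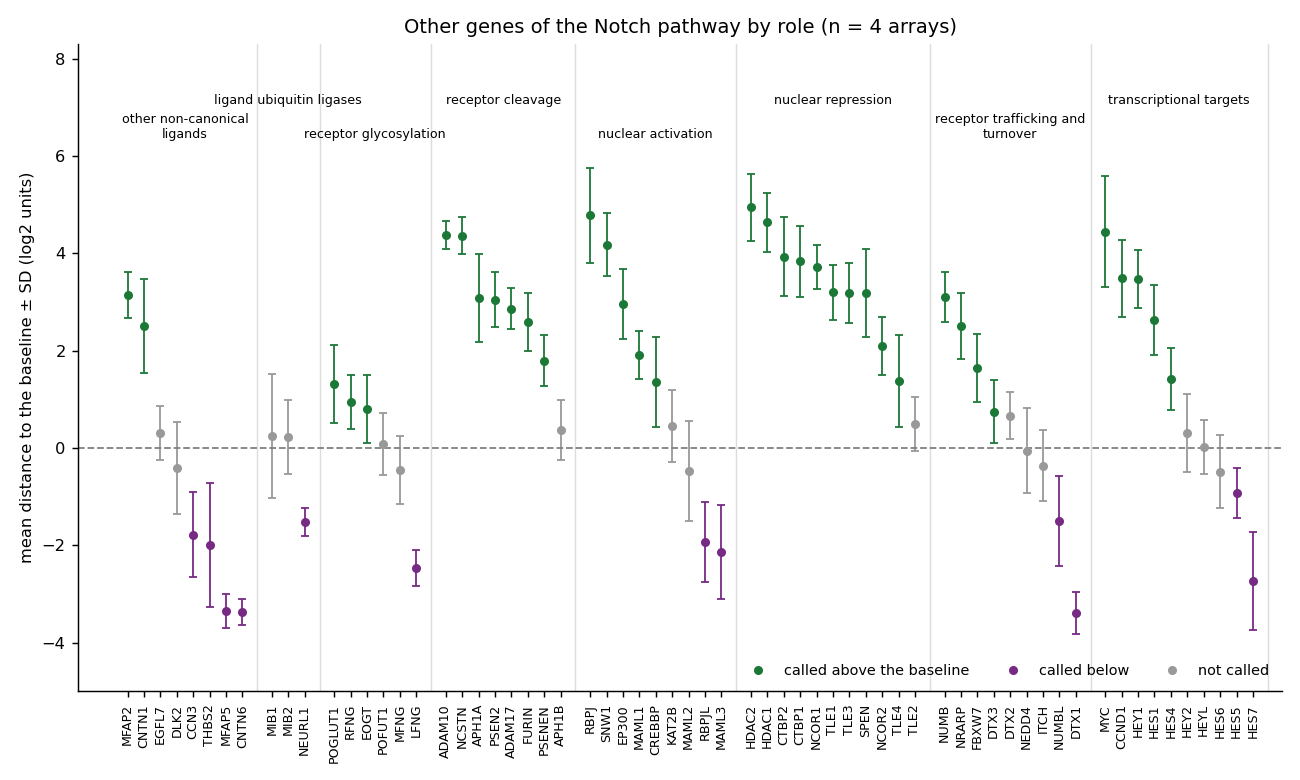
Mean distance to the baseline with its SD over 4 arrays (log2 units, vertical axis) for the other Notch pathway genes, with 1 of the 65 not drawn, grouped by role and coloured by the limma call. Receptor cleavage and nuclear repression genes lie almost wholly above the baseline (8 of 9 and 10 of 11 called), whereas the other groups are mixed.

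Other proteins that can act on Notch as ligands lay on both sides of the baseline. Of 8 matched, 2 were called above the baseline and 4 below. MFAP2, a microfibril protein, stood at 3.14 ± 0.48 and CNTN1, a neuronal adhesion protein, at 2.51 ± 0.96 (SD, n = 4 for each). The level of CNTN1 was 11.36 and 12.21 on replicates 1 and 3 and 13.46 and 13.43 on replicates 2 and 4. Its high arrays were therefore the low arrays of DNER. THBS2, a matrix protein, had the same arrays high as DNER, with levels of 8.93, 7.15, 9.33 and 7.04 on replicates 1 to 4, all below the baseline. CCN3, a secreted matricellular protein, stood at -1.79, CNTN6 at -3.37 and MFAP5 at -3.35. EGFL7 at 0.31 ± 0.55 and DLK2 at -0.41 ± 0.94 (SD, n = 4 for each) were not called.

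The ligases that tag Delta and Jagged proteins for the endocytosis that activates Notch were near the baseline. MIB1 stood at 0.25 ± 1.28 and MIB2 at 0.23 ± 0.75 (SD, n = 4 for each), and neither was called. NEURL1 was called below at -1.52 ± 0.28 (SD, n = 4). The distance of MIB1 was 1.76 on replicate 1 and -1.30 on replicate 3. The enzymes that put sugars on Notch EGF repeats were mixed, with 3 of 6 called above and 1 below. POGLUT1, which adds glucose, stood at 1.31 ± 0.80, and POFUT1, which adds fucose, stood at 0.08 ± 0.64 and was not called (SD, n = 4 for each). The value of POFUT1 is the average of 2 targets. With the higher target alone, POFUT1 was called above the baseline at 2.23 (limma adjusted p = 8.8e-10). EOGT, which adds N-acetylglucosamine, stood at 0.81 ± 0.70 (SD, n = 4, limma adjusted p = 0.025), a call lost without replicate 1 (adjusted p = 0.146) or replicate 2 (adjusted p = 0.109). Summarised by the median of its probes, EOGT was called below the baseline, at -1.67.

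Fringe enzymes extend the fucose and shift the balance between Delta and Jagged ligands. Of these, RFNG was called above the baseline at 0.94 ± 0.56 (SD, n = 4, limma adjusted p = 0.0087). LFNG was called below at -2.46 ± 0.37 and MFNG was not called at -0.45 ± 0.70 (SD, n = 4 for each). RFNG was above the baseline on 4 of 4 arrays, LFNG on 0 and MFNG on 1.

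The genes that cut the receptor gave high signals. Of 9, 8 were called above the baseline and none below. FURIN, which cleaves the receptor on its way to the surface, stood at 2.58 ± 0.60. The metalloproteases ADAM10 and ADAM17 stood at 4.38 ± 0.28 and 2.86 ± 0.42. The gamma-secretase genes NCSTN at 4.36 ± 0.39, APH1A at 3.09 ± 0.90, PSEN2 at 3.05 ± 0.56 and PSENEN at 1.79 ± 0.52 were also called above (SD, n = 4 for each). APH1B, the alternative to APH1A, was not called at 0.37 ± 0.62 (SD, n = 4).

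In the nucleus, RBPJ, the DNA-binding partner of cleaved Notch, stood at 5.69, 5.20, 3.42 and 4.82 on replicates 1 to 4, a mean of 4.78 ± 0.98 (SD, n = 4). Its relative RBPJL was called below the baseline at -1.93 ± 0.82 (SD, n = 4). Of the 3 Mastermind coactivators MAML1 was called above at 1.91 ± 0.49, MAML3 below at -2.14 ± 0.96, and MAML2 was not called at -0.47 ± 1.03 (SD, n = 4 for each). SNW1 at 4.18, the acetyltransferase EP300 at 2.95 and CREBBP at 1.35 were called above, and KAT2B at 0.44 was not. In all 5 of 9 nuclear activation genes were called above and 2 below.

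Genes of the repressor complexes that RBPJ recruits without Notch were nearly all above the baseline, 10 of 11, with 0 called below. HDAC2 at 4.94 ± 0.69 and HDAC1 at 4.63 ± 0.60 were the highest, and SPEN, which binds RBPJ directly, stood at 3.18 ± 0.91 (SD, n = 4 for each). TLE4 at 1.37 was the lowest one called, and TLE2 at 0.50 was not called. Of 9 genes for receptor trafficking and turnover, 4 were called above and 2 below. NUMB, which sorts Notch away from the membrane, stood at 3.11 ± 0.51, and its relative NUMBL was called below at -1.51 ± 0.93 (SD, n = 4 for each). NRARP, an inhibitor that is itself a Notch target, stood at 2.51 ± 0.69, and FBXW7, which marks cleaved Notch for degradation, at 1.64 ± 0.70 (SD, n = 4 for each). The call of NRARP was lost with the mean of the log2 probe values, at 0.61, and with the median of its probes, at 0.04. DTX1 was called below at -3.39 ± 0.42 (SD, n = 4). DTX3 at 0.75 ± 0.64 passed narrowly (SD, n = 4, limma adjusted p = 0.039) and did not pass without replicate 1 (0.197), replicate 2 (0.074) or replicate 3 (0.053). DTX2 at 0.66, ITCH at -0.36 and NEDD4 at -0.06 were not called.

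Among the transcriptional targets, 5 of 10 were called above the baseline and 2 below. HEY1 stood at 3.47 ± 0.60, HES1 at 2.63 ± 0.72 and HES4 at 1.42 ± 0.64 (SD, n = 4 for each). The level of HES1 was 12.85, 12.57, 12.36 and 13.17 on replicates 1 to 4 and that of HEY1 was 13.77, 13.46, 13.76 and 13.30. Replicates 1 and 3 were the higher arrays for HEY1 as they were for DNER, but its whole range was 0.47 log2 units, and HES1 had no such order. HES5 was called below at -0.93 ± 0.52 (SD, n = 4, limma adjusted p = 0.010) and HES7 at -2.73 ± 1.00 (SD, n = 4). HEY2 at 0.30, HEYL at 0.02 and HES6 at -0.49 were not called. With SPATA5 and SPATA13 left out of the control genes, HES5 was called above the baseline and HES7 was not called. MYC and CCND1, growth genes with many inputs besides Notch, stood at 4.45 ± 1.13 and 3.48 ± 0.79 (SD, n = 4 for each). The level of MYC was 13.45 and 13.76 on replicates 1 and 3 and 15.48 and 15.50 on replicates 2 and 4.

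HES genes are the classical readout of Notch because RBPJ binds close to their start. For display, 4 target genes were picked because the 120 bases before their start hold the RBPJ motif. They set HES1 and HES4, called above the baseline, beside HES5, called below it, and HEYL, which was not called. The 120 bases before each RefSeq start (GRCh38.p14) are shown. They are written on the gene's own strand, with the core RBPJ motif TGGGAA in capitals. They lie at chr3:194136028-194136147 on the plus strand for HES1, and on the minus strand at chr1:1000098-1000217 for HES4, chr1:2530264-2530383 for HES5 and chr1:39639644-39639763 for HEYL.
HES1: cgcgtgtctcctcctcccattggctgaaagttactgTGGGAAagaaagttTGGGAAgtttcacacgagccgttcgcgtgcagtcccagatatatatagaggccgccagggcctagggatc
HES4: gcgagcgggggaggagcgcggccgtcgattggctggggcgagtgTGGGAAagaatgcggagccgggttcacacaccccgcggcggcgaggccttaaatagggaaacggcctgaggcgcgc
HES5: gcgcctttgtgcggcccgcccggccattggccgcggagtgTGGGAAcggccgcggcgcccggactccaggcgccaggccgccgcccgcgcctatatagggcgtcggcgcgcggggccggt
HEYL: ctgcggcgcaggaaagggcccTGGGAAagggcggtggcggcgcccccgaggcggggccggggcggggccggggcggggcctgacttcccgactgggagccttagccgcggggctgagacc

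The motif TGGGAA and its complement TTCCCA were searched on both strands of windows from 250 bases before to 50 after each start. HES1 held 2 copies, at -84 and -70 from the start, HES4 held 1 at -76, and HES5 held 1 at -80 and another at -224 on the opposite strand. HEYL held 1 at -99 and another at -178 on the opposite strand, and HEY2 held 2. Of the 7 HES and HEY windows at hand 5 held the motif, and of the 7 windows at hand for Notch receptors and ligands 0 did. Those were NOTCH1, NOTCH2, NOTCH3, NOTCH4, DLL4, JAG1 and JAG2. Of all 35116 windows of this length 24.03% held the motif, and 6.25% held the longer GTGGGAA, which contains it. All 5 target windows with the motif held the longer form at least once, with HES1 and HES4 called above the study's baseline, HES5 below it, and HEY2 and HEYL not called. The call for HES5 turned with the control genes, as given above. A match of letters is a description of the window and does not show binding.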

How the data were processed

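Arrays were NimbleGen HG18 designs with probes of 60 bases, read in the Cy3 channel alone after oligo(dT)-primed cDNA synthesis from total RNA of 4 HEK293 cultures. The authors deposited log2 probe values, and the submitters' processing notes name RMA, without version or role. The 71998 probes ran from 5.14 to 15.99. When values were sorted, replicates 1 and 2 matched to 0.01 at 99.97% of ranks, replicates 3 and 4 at 99.99%, and other pairs at no more than 1.25%. Probe brightness over background is not known, and the number of arrays limits the precision.

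Probe names were matched by RefSeq accession to a table of GRCh38.p14, which named 19125 of 24000 targets. The 3 probe values of a target were averaged on the linear scale and returned to log2, and targets of 1 gene were averaged. Of 11 control genes, 10 were matched and PYY2 was not. AFG2A, listed as SPATA5, and SPATA13 read 9.21 to 10.73 log2 units over the arrays, and MSMB, SPATA3, SPATA4, SPATS1, SPESP1, CBY2, ODF1 and SPAM1 read 6.05 to 7.72. The test was limma 3.58 in R 4.3 on the distances, two-sided, against 0, at an adjusted p of 0.05, with code tested on simulated data. The alternatives tried were the baseline's height and controls, the probe and target summary, quantile normalization of the 4 arrays together, the variance model, a filter on low genes and single replicates left out. Figures were drawn with matplotlib. The genes described and the lists were chosen with earlier results of these data known. Named were the 10 genes, the controls, listed pathway genes (at least the 2 highest and 2 lowest of a list of 6 or more), NOTCH2 partial copies, the highest marker of a list, and the 5 genes nearest by level to JAG2, the highest of the 10. INSM1, NEFM, NEFH, INA, TUBB3 and the 5 genes nearest to DNER were named after their values had been seen. Some listed genes are counted but not reported here by name. Promoter sequences are RefSeq's (GRCh38.p14).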

Additional observations from a re-analysis of the deposited data

Results flagged for a closer look

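Among 85 sets of 4 array values, 4 contained an outlying array by Dixon's test of the gap over the whole range, and chance alone gives about 1 in 20. For NOTCH3, replicate 3 stood at a distance of 0.0586 while the rest ranged from 1.00 to 1.15, a gap of 0.863 of the range. POFUT1 stood at 1.03 on replicate 1 and at -0.31 to -0.11 on the others, a gap of 0.848. NEURL1 stood at -1.94 on replicate 2 and at -1.42 to -1.35 on the others, a gap of 0.895. MFAP5 stood at -3.87 on replicate 4 and at -3.21 to -3.12 on the others, a gap of 0.874. Replicate 3 had the highest baseline and replicate 1 the lowest, and the levels of NOTCH3 before subtraction were not marked. The part of the baseline in these values was not tested.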

How the results depend on the processing

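The height of the baseline moved the 10 genes and the whole array together. The share of all genes detected was 39.1% with 3 SD, 64.3% with 1 SD, 74.0% without SPATA5 and SPATA13 and 71.4% with olfactory receptor genes as controls, and of the 10 genes 2, 10, 10 and 10 were then detected. The share of all genes above on all arrays was taken under the reported settings only, at 45.0%. The alternative counts of that kind below therefore have no background beside them. With 3 SD in place of 2 SD, 2 genes lay above the baseline on all arrays, and 27 pathway genes were called below it. DLL1 then stood at -1.005, DLL3 at -1.10, NOTCH1 at -0.23, NOTCH3 at -0.50 and NOTCH4 at -0.95. With 1 SD, 8 genes lay above on all arrays and 7 pathway genes were called below, and DLL4 (0.12), DNER (0.69) and JAG1 (0.94) turned positive. Without SPATA5 and SPATA13, 9 lay above on all arrays, 56 pathway genes were called above and 3 below, with DLL4 at 1.13, DNER at 1.70 and JAG1 at 1.95. With olfactory receptor genes as controls, 9 lay above on all arrays and 3 pathway genes were called below, with DLL4 at 0.89, DNER at 1.46 and JAG1 at 1.70. With the mean of log2 probe values 2 lay above on all arrays and DLL3 stood at -0.33. With the median of probes it was also 2, with DLL3 at -0.67 and NOTCH4 at -0.76. Replicates 1 and 2 alone, chosen after seeing the data because they share a distribution, gave 7 genes above on both arrays and JAG1 at 0.32. Replicates 3 and 4 alone gave 4 detected, beside 48.8% of all genes, with DLL1 at -0.0931, DLL3 at -0.34 and NOTCH4 at -0.0067. With single replicates left out, 6 to 8 genes were detected, beside 50.6% to 54.3% of all genes. In the same runs 4 to 6 lay above on all remaining arrays, and the pathway counts ran from 35 to 37 above and 12 to 13 below. DLL1 then ranged from -0.0227 (without replicate 1) to 0.677 and DNER from -1.56 to 0.17 (without replicate 4). Of the counts, 60 alternative values stayed within 1.5 times the reported one and 14 did not. Of the single distances, 88 moved by less than 1 SD, 29 moved further and 23 changed sign. By their mean over the arrays, JAG2 and NOTCH2 were above the baseline under every alternative run, at 2.16 to 5.80 and 1.59 to 5.24. With the median of probes, however, the spread of NOTCH2 exceeded its mean, at 1.67 ± 1.84 (SD, n = 4). Where a value moved with the baseline, the alternative's own construction gives the cause, and for the others the cause was not tested.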
